A study of Mus musculus with 23 samples.

Results

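The 8 genes described here, Klf2, Klf4, Klf6, Klf7, Klf9, Klf10, Klf13 and Klf16, encode Krüppel-like factors (KLFs). They were taken by symbol, and all 8 were present among the 24985 gene symbols of each of the 2 deposited count tables. Their RNA was followed in 23 mouse hippocampus libraries in which Acss2, the gene of an enzyme that makes acetyl-CoA from acetate, was intact or deleted. KO mice carried a constitutive deletion of Acss2 exons 3 to 7 that had been introduced into single-cell embryos, Het mice were heterozygous for it, and WT mice had none, all on the C57BL6/J strain. In the first experiment whole hippocampus was taken from home cage mice, with 2 KO, 2 Het and 2 WT libraries, all of the batch labelled B0. In the second, dorsal hippocampal sections 1 mm thick were taken 30 min after single-shock contextual fear conditioning, here called fear, or directly from the home cage. It comprised 4 KO fear, 3 WT fear, 5 KO home cage and 5 WT home cage libraries. The home cage was the only control, so conditioning, handling and the new context cannot be told apart. Age and sex were not given in the labels, nor whether the replicates were separate animals, so p-values measure only the spread between these samples.

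KLFs are transcription factors that bind GC-rich and CACCC sequences of promoters and enhancers through zinc fingers near their carboxyl end, and differ in the rest of the protein, which recruits activators or repressors. KLF9, KLF13 and KLF16 bind the Sin3A corepressor, and Klf9 is induced in neurons by glucocorticoid and thyroid hormone. KLF2 and KLF4 are known for the response of endothelium to blood flow, where MEF2 factors drive both genes, and KLF6 and KLF7 for axon growth. KLF10 was first described as an early target of TGF-beta.

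Promoters are shown for the pair whose levels differed most between whole and dorsal hippocampus, Klf2 and Klf4, and for the most abundant pair, Klf9 and Klf13. Each runs 5′ to 3′ on the gene's own strand, from 250 bases before to 50 bases after the start, from RefSeq on build GRCm38.p6, and capitals mark matches on either strand to a MEF2 site, the GC box GGGCGG or the cyclic AMP response motif TGACG.
Klf2 promoter, chr8:72318812-72319111, plus strand: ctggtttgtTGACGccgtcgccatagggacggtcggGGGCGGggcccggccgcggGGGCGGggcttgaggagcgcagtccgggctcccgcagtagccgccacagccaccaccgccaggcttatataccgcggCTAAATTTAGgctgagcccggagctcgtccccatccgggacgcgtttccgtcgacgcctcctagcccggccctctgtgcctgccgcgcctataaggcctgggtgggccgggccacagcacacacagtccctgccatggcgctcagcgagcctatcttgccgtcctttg
Klf4 promoter, chr4:55532426-55532725, minus strand: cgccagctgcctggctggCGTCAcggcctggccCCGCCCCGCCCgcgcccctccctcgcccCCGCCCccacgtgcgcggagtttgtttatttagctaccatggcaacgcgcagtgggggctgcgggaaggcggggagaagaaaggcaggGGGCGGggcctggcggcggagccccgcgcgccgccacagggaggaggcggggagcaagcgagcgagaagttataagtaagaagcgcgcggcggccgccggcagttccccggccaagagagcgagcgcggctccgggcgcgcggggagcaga
Klf9 promoter, chr19:23140976-23141275, plus strand: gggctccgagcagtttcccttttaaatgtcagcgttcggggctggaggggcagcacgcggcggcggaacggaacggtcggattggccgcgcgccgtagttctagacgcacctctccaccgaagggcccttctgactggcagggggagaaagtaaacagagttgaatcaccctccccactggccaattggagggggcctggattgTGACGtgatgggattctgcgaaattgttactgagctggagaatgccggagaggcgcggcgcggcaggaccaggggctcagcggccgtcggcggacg
Klf13 promoter, chr7:63938866-63939165, minus strand: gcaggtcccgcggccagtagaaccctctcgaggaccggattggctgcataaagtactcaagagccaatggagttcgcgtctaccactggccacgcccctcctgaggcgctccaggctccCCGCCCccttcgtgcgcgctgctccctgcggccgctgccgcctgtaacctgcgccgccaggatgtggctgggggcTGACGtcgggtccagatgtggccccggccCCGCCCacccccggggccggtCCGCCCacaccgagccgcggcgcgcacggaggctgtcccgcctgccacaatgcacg
The Klf2 promoter held 2 GC boxes and 1 MEF2 site, which began at position -118 from the start. There were 4 GC boxes in Klf4, 3 in Klf13 and 0 in Klf9, and each of the 4 promoters had 1 TGACG motif. Among 32851 promoters of the same length, 35.7% had a GC box, 20.8% TGACG and 3.19% a MEF2 site. The CACCC box CACCC occurred in 57.5% of all promoters and in Klf2, Klf9 and Klf13 of these 4. The full element TGACGTCA, which contains TGACG, occurred in 1.79% of all promoters, the CArG box of serum response factor in 1.63%, and neither in the 6 members that had a promoter in the table. Klf6 and Klf7 were the other 2 of the 6, with 1 GC box each. Klf10 and Klf16 were not in the table.

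Total counts per library ranged from 18814460 to 27293661 in whole hippocampus and from 5362773 to 23412644 in dorsal hippocampus, where batch B1 was the shallowest (5362773 to 9109104). B1 held KO fear 1 and 2, the 3 WT fear libraries and WT home cage 1 and 2, B2 held KO home cage 1 to 3 and WT home cage 3 to 5, and B3 held KO fear 3 and 4 and KO home cage 4 and 5. WT fear was therefore compared directly with another group only inside B1. Acss2 followed the labels, at 6.73 and 7.02 counts scaled to a common library size (CPM) in whole KO, 31.2 and 34.3 CPM in the Het pair and 60.9 and 60.3 CPM in WT, and at 5.18 to 6.04 CPM in KO fear, 56.2 to 57.7 CPM in WT fear, 3.87 to 5.85 CPM in KO home cage and 57.6 to 71.3 CPM in WT home cage. In the whole hippocampus experiment Xist stood at 0.137 to 0.145 CPM in KO, 597 to 644 CPM in Het and 663 to 677 CPM in WT, and the Y-linked Ddx3y at 89.6 to 101 CPM in KO, 0.107 to 0.186 CPM in Het and 0 CPM in WT. Genotype and sex-linked expression therefore cannot be told apart in whole hippocampus for KO against Het or WT. Each dorsal library had Ddx3y at 70.5 CPM or more and Xist at 0.251 CPM or less.

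The members spanned a wide range of levels. Compared per kilobase of exon, Klf9 was the most abundant member in each of the 7 groups, with a mean of 37.3 to 50.03 CPM per kb, followed by Klf13 at 29.5 to 39.4 CPM per kb and Klf16 at 13.6 to 19.7 CPM per kb. The ranges of Klf9 and Klf13 did not overlap in whole hippocampus, and overlapped in each dorsal group, whereas Klf13 stood above Klf16 in each library range. Klf10 (7.41 to 9.07 CPM per kb) and Klf6 (6.84 to 14.1 CPM per kb) came next and changed places between groups. Their ranges overlapped in WT whole hippocampus and in the 4 dorsal groups. Klf2 held the sixth place in each group, with 5.93 to 6.94 CPM per kb in whole and 1.05 to 2.23 CPM per kb in dorsal hippocampus. The lowest places were taken by Klf4 (0.532 to 2.61 CPM per kb) and Klf7 (0.854 to 1.14 CPM per kb). All 8 members passed the filter on low counts in both experiments. The lowest single counts were 6 reads of Klf4 and 8 of Klf2, both in dorsal libraries, against at least 129 and 203 reads in whole hippocampus.

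**Figure D1:**
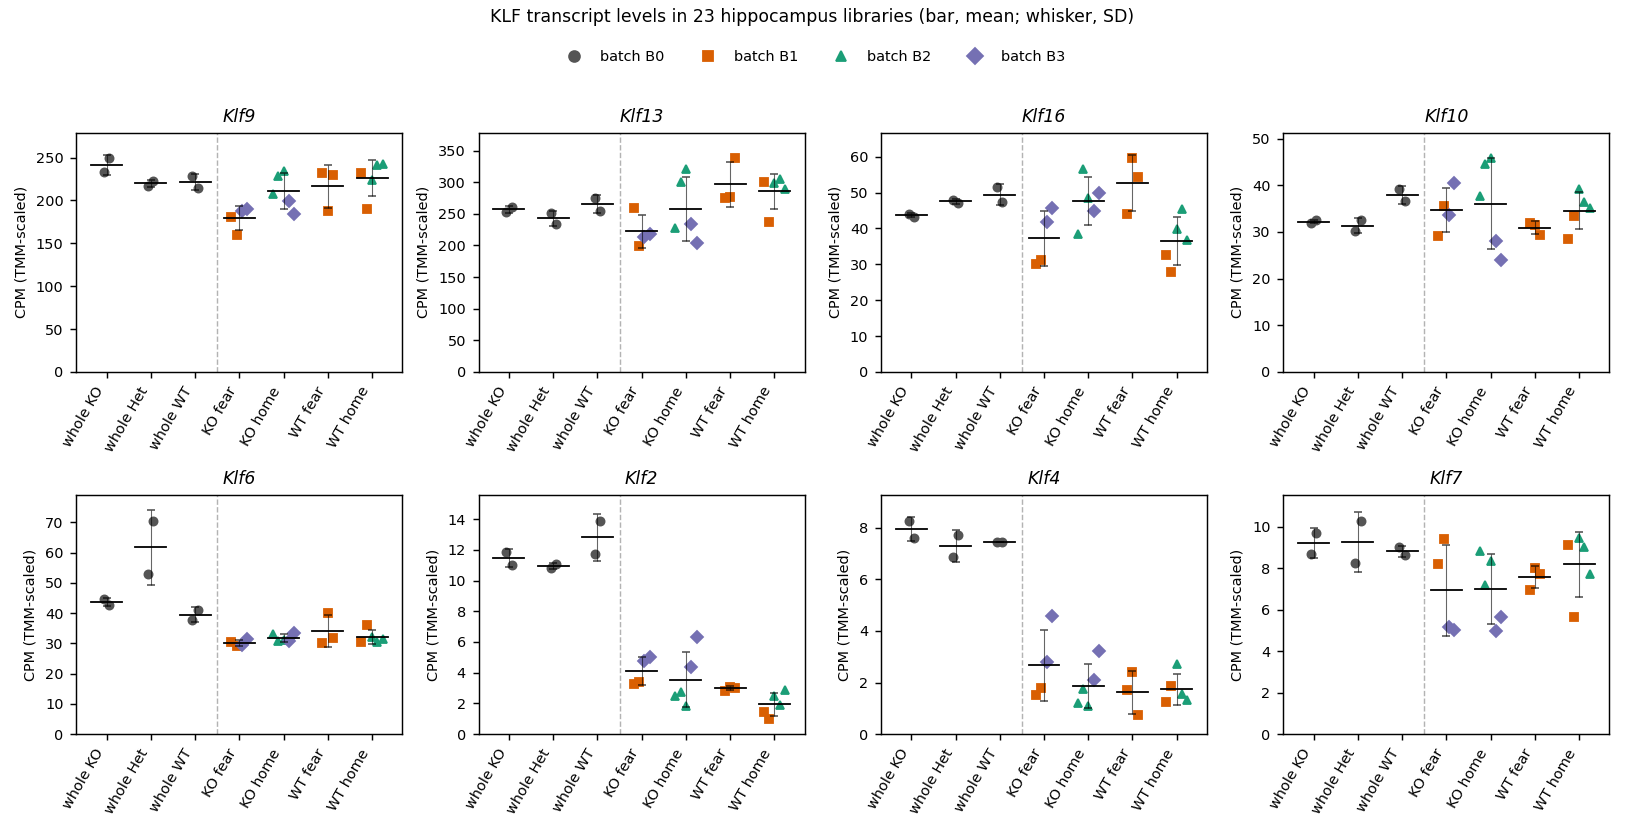
Level of each KLF gene in each of the 23 libraries, in TMM-scaled CPM on axes that start at 0, with points shaped by batch, bars at the group mean and whiskers for the SD. Whole hippocampus lies left of the dashed line. Klf16 is highest in WT fear, Klf2 and Klf4 are several-fold higher in whole than in dorsal hippocampus, and Klf6 is highest in whole Het.

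Across 8 comparisons the 8 members gave 64 differences, of which 3 passed an adjusted p of 0.05 in edgeR's quasi-likelihood test, all of them for Klf16. After fear in WT, 1 of 8 members passed, against 1.63% of all genes tested in that comparison (0.871% higher and 0.756% lower). In KO fear against WT fear 1 of 8 passed, against 22.3% of all genes (10.2% higher and 12.1% lower), and in the interaction of genotype with fear 1 of 8, against 0.479%. The 3 calls share the 3 WT fear libraries and are not independent of each other. In KO fear against KO home cage 0 of 8 passed by edgeR (0% of all genes), and the count was also 0 at an unadjusted p under 0.05 and by DESeq2. KO home cage against WT home cage likewise gave 0 of 8 by edgeR (0.00675% of all genes), 0 before adjustment and 0 by DESeq2. In these 2 comparisons 0 members had libraries that did not overlap between the groups, against 4.3% and 3.09% of all genes, and after fear in WT 0 of 8, against 16.1%.

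Whole hippocampus gave 0 of 8 members by edgeR for KO against WT (0.0388% of all genes, 0.0259% higher and 0.0129% lower), with 2 members at an unadjusted p under 0.05, Klf10 and Klf16, as were 941 of all 15453 genes, and 0 by DESeq2, which called 19 genes. Het against WT gave 0 of 8 by edgeR (0% of all genes), 2 before adjustment, Klf6 and Klf10, as were 2145 genes, and 1 by DESeq2, Klf6, among 142 genes. KO against Het gave 0 of 8 by edgeR (0.0841% of all genes, 0.0453% higher and 0.0388% lower), 1 before adjustment, Klf6, as were 2038 genes, and 0 by DESeq2, which called 135 genes. The median log2 difference of the 8 members ran from -0.18 to 0.10 over the 8 comparisons, and that of all genes tested from -0.019 to 0.034.

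**Figure D2:**
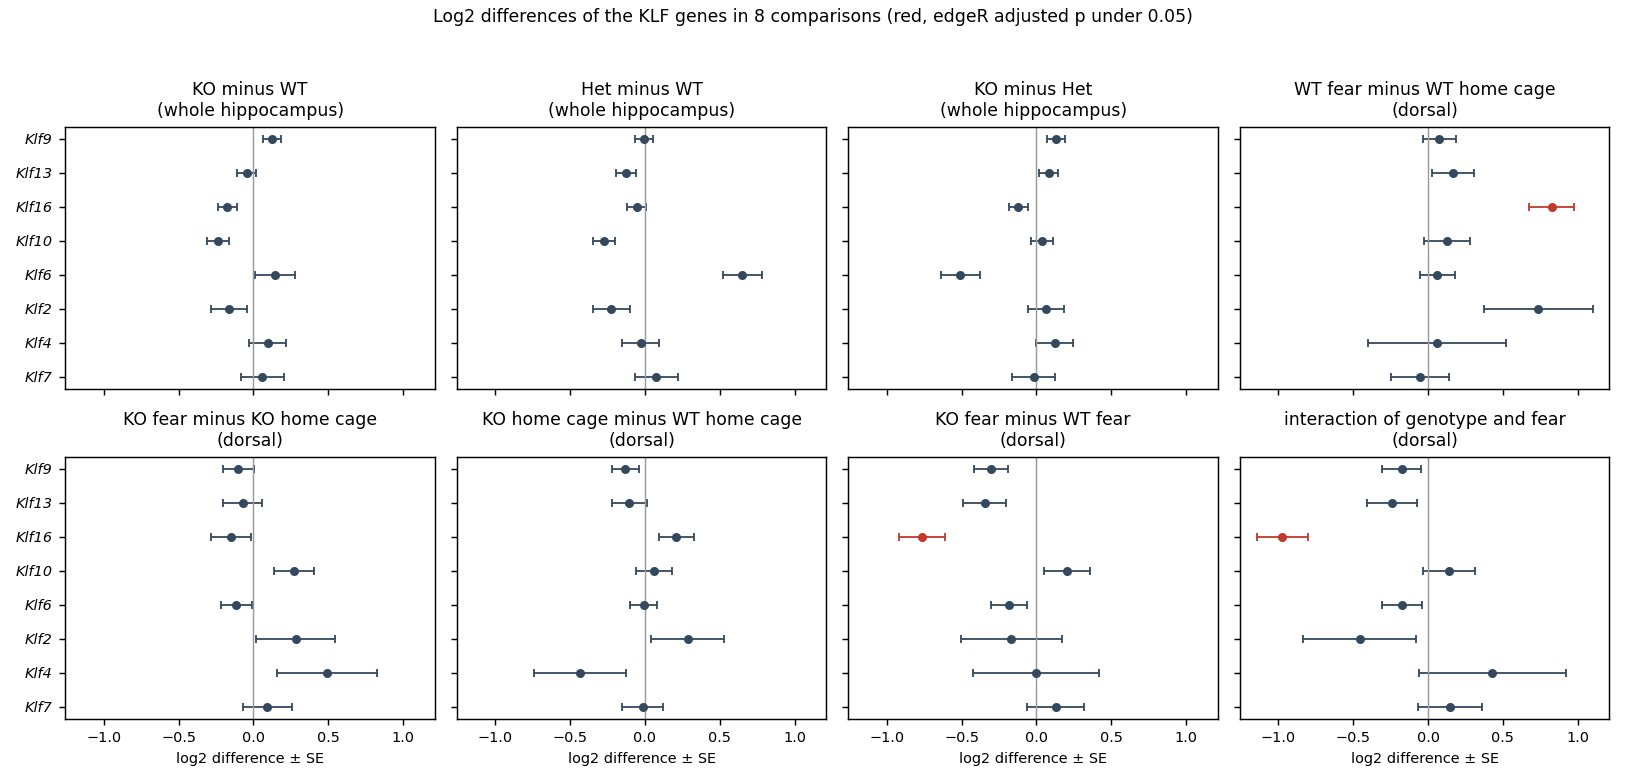
Log2 difference of each KLF gene in the 8 comparisons, first-named group over the second, with whiskers for 1 SE and red for an edgeR adjusted p under 0.05. The red points are those of Klf16 at 0.82 for WT fear against WT home cage, -0.76 for KO fear against WT fear and -0.97 for the interaction.

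Klf16 encodes a KLF that in mouse binds GC-rich promoters, among them those of dopamine receptor genes. Its locus is chr10:80567124-80577321 on the minus strand of mm10 (ENSMUSG00000035397.8). In fear-conditioned WT mice it stood at 44.1, 59.5 and 54.3 CPM, and in WT home cage at 32.6, 27.9, 39.9, 45.4 and 36.8 CPM. Of the 3 WT fear libraries 2 lay above every WT home cage library, and the lowest WT fear value lay below the highest WT home cage value, so the groups overlapped. The means were 52.6 ± 7.87 CPM in WT fear (SD, n = 3) and 36.5 ± 6.72 CPM in WT home cage (SD, n = 5). With batch as a term, Klf16 rose by 0.82 ± 0.15 on the log2 scale (SE), which is 1.77-fold, with an edgeR adjusted p of 0.0233.

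In KO mice Klf16 stood at 30.2, 31.2, 41.9 and 45.7 CPM in KO fear and at 38.3, 56.6, 48.4, 44.8 and 49.9 CPM in KO home cage. The 2 lowest of these 9 values were KO fear 1 and 2, of batch B1, and the other 2 KO fear values lay inside the KO home cage range. The log2 difference was -0.15 ± 0.13 (adjusted p = 0.968). Set against each other after fear, KO libraries averaged 37.2 ± 7.72 CPM (SD, n = 4) and WT libraries 52.6 ± 7.87 CPM (SD, n = 3), and Klf16 was 1.70-fold lower in KO (log2 -0.76 ± 0.15, adjusted p = 0.0155). The difference between the KO and the WT response was -0.97 ± 0.17 on the log2 scale (interaction, edgeR adjusted p = 0.0406). KO home cage against WT home cage gave 0.21 ± 0.12 (adjusted p = 0.470).

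Inside B1, the batch that holds all WT fear libraries, KO fear had 30.2 and 31.2 CPM, WT fear 44.1 to 59.5 CPM and WT home cage 32.6 and 27.9 CPM, with every WT fear library above the other 4. Fitted on B1 alone, WT fear against WT home cage gave 0.82 ± 0.17 at an adjusted p of 0.0514, just short of the threshold, and KO fear against WT fear gave -0.79 ± 0.17 at 0.0151. In B3, KO fear had 41.9 and 45.7 CPM and KO home cage 44.8 and 49.9 CPM, a log2 difference of -0.12 ± 0.11. B2 gave 0.24 ± 0.15 for KO home cage against WT home cage. No batch holds all 4 groups, so the interaction has no value within a batch.

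**Figure D3:**
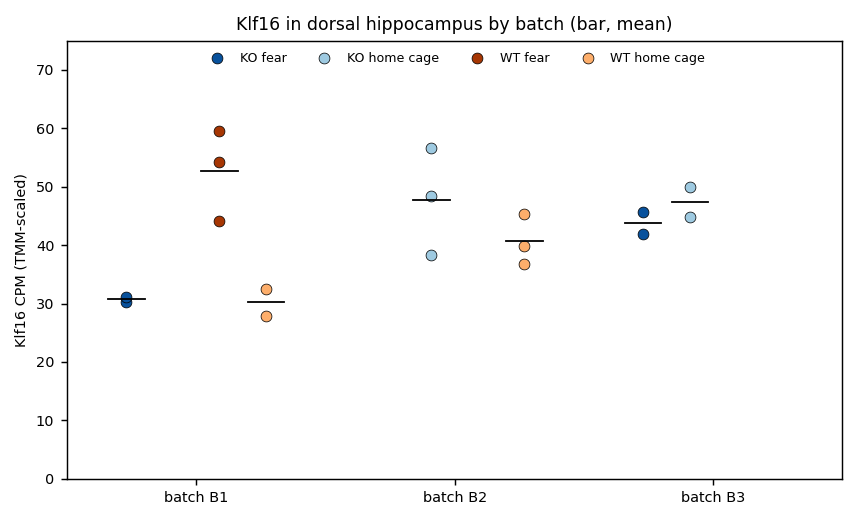
Klf16 in TMM-scaled CPM in the 17 dorsal libraries by batch, 1 point per library, with bars at the mean of each group within a batch. In B1 the 3 WT fear libraries (44.1 to 59.5 CPM) stand above KO fear and WT home cage, while in B3 KO fear and KO home cage lie close together.

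The Klf16 calls rested on few libraries. The WT fear call was kept in 14 of the 17 fits that each left out 1 library, and was lost without WT home cage 2, WT fear 2 or WT fear 3 (log2 0.77, 0.73 and 0.81, adjusted p up to 0.200). KO fear against WT fear was likewise kept in 14 of 17, and lost without WT fear 2, WT fear 3 or KO fear 2 (adjusted p up to 0.110). The interaction was kept in 4 of 17, those without KO home cage 1 or 3, WT fear 1 or WT home cage 1, and its adjusted p ranged up to 0.186 over the rest. Its log2 value stayed between -1.11 and -0.88 over those 17 fits. Without a batch term the differences were 0.52 for WT fear (adjusted p = 0.0707), -0.49 for KO fear against WT fear (0.0710) and -0.87 for the interaction (0.217).

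Several marker lists differed along with Klf16. The summed level of the 9 of 10 CA1 pyramidal neuron markers found in the table was 413 to 1045 CPM in KO fear, 718 to 1226 CPM in WT fear, 413 to 1008 CPM in KO home cage and 427 to 609 CPM in WT home cage. After fear in WT 5 of these 9 rose, against 0.871% of all genes, with a median log2 difference of 1.20. In KO fear against WT fear 7 of 9 fell, against 12.1% of all genes, with a median of -1.17. Library by library, KO fear 1 and 2, low in Klf16, had CA1 sums of 439 and 413 CPM, and KO fear 3 and 4 had 928 and 1045 CPM. KO home cage 1, the lowest of its group in Klf16, had 413 CPM against 774 to 1008 CPM in the other 4. WT fear 1, the lowest of its group in Klf16, had 718 CPM against 1176 and 1226 CPM in the other 2. Other libraries did not follow this order. KO home cage 4 had the highest CA1 sum of its group, 1008 CPM, and the second lowest Klf16, 44.8 CPM. WT home cage 1 to 5 had sums of 609, 454, 427, 463 and 476 CPM beside Klf16 values of 32.6, 27.9, 39.9, 45.4 and 36.8 CPM, so that the highest sum stood beside the second lowest Klf16.

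The 10 oligodendrocyte markers summed to 6827 to 10720 CPM in KO fear, 4031 to 5398 CPM in WT fear, 7113 to 12031 CPM in KO home cage and 6940 to 13880 CPM in WT home cage, and 8 of the 10 fell after fear in WT, against 0.756% of all genes. The 10 ependymal markers summed to 32.5 to 88.3 CPM in KO fear, 9.22 to 10.9 CPM in WT fear, 28.8 to 133 CPM in KO home cage and 45.6 to 123 CPM in WT home cage. No gene of these 3 lists was at 0 in every library of a group. Neocortex markers, 10 in all, summed to 468.6 CPM or more in each WT fear library. Their highest sums were 349.8 CPM in KO fear, 407.8 CPM in KO home cage and 424.1 CPM in WT home cage. Of these 10, 4 fell in KO fear against WT fear and 0 passed after fear in WT. Of 10 dentate gyrus markers 2 fell in KO fear against WT fear, and 9 lay below 0. Of 10 CA2 and CA3 markers 3 fell after fear in WT, while in KO fear against WT fear 2 rose and 2 fell. The part of these markers in the Klf16 differences was not tested. In bulk tissue, more or fewer cells of a type and more or less RNA per cell cannot be told apart.

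**Figure D4:**
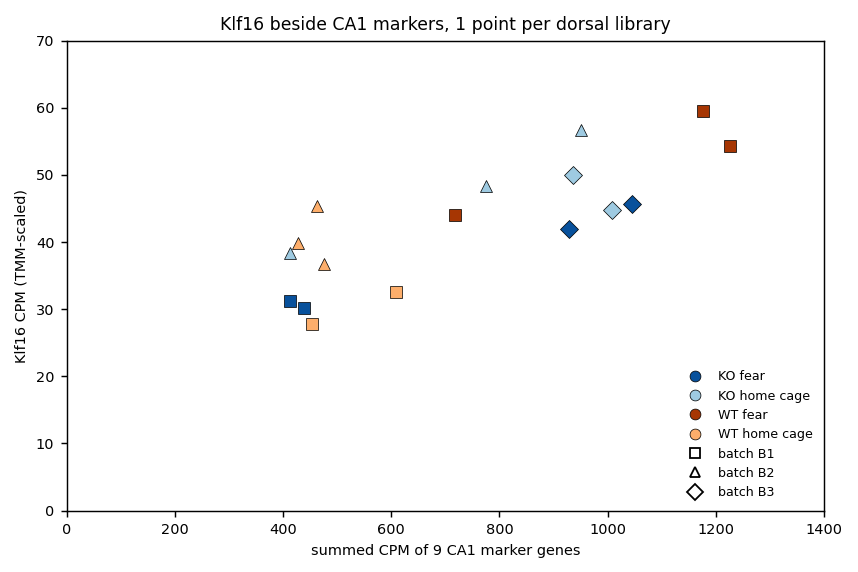
Klf16 against the summed CPM of 9 CA1 marker genes, both in TMM-scaled CPM, 1 point per dorsal library with color for group and shape for batch. The 2 WT fear libraries with the highest CA1 sums (1176 and 1226 CPM) stand at 59.5 and 54.3 CPM of Klf16, and KO fear 1 and 2 are low on both axes.

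Base composition also moved with these comparisons. The Klf16 transcript is 60.4% G and C, above 96.4% of protein-coding genes, whose median was 48.7%. Genes of 60% or more (655 tested in dorsal hippocampus) had a median log2 difference of 0.083 after fear in WT, -0.11 after fear in KO, -0.10 in KO fear against WT fear and -0.17 in the interaction. Genes under 40% had medians of -0.045, 0.12, 0.12 and 0.17 in the same comparisons. The Klf16 values of 0.82, -0.15, -0.76 and -0.97 had the sign of the GC-rich genes each time, and the part of base composition in them was not tested. Whole hippocampus Klf16 stood at 44.1 and 43.3 CPM in KO, 48.0 and 47.1 CPM in the Het pair and 51.4 and 47.3 CPM in WT. The KO values lay below those of the other groups without overlap. Of all genes, 42.1% did not overlap between KO and WT and 43% between KO and Het. The log2 difference of KO from WT was -0.18 ± 0.063 (edgeR adjusted p = 0.802), where genes of 60% or more had a median of -0.11.

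Klf9 and Klf13, the most abundant members, had their lowest group means in KO fear, without passing the test. Klf9 limits neuronal excitability and dendritic spine formation, and stood at 180.5, 159.9, 188 and 189.5 CPM in KO fear and at 232, 188 and 230.2 CPM in WT fear. The groups overlapped through WT fear 2, and the log2 difference was -0.31 ± 0.11 (edgeR adjusted p = 0.0593, DESeq2 adjusted p = 0.0260). DESeq2 called 4055 of all 14808 genes in that comparison. Klf13, which regulates cytokine expression in T cells and is closely related to Klf9, stood at 259.5, 199, 213 and 218 CPM in KO fear and at 276, 276 and 338 CPM in WT fear. Each KO fear library lay below each WT fear library, and the log2 difference was -0.35 ± 0.14 (adjusted p = 0.0868). Klf13 was 1 of 2 members whose KO fear and WT fear libraries did not overlap, against 21.4% of all genes.

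The KO home cage libraries of Klf9 stood at 207, 229, 234, 199 and 184 CPM and those of WT home cage at 232, 190.2, 224, 241 and 242 CPM. Klf13 stood at 228, 300.2, 321, 234 and 204 CPM in KO home cage and at 299.8, 238, 299, 305 and 289 CPM in WT home cage. The groups overlapped for both genes, and in B3 the KO home cage values of 199 and 184 CPM of Klf9 were close to the KO fear values of that batch, 188 and 189.5 CPM. KO fear against KO home cage gave -0.10 ± 0.10 for Klf9 and -0.072 ± 0.13 for Klf13, and WT fear against WT home cage 0.075 ± 0.11 and 0.17 ± 0.14. Over the 17 dorsal libraries with batch removed, Klf9 and Klf13 had a Pearson r of 0.84, the highest of the 28 pairs of members, and Klf13 and Klf16 had 0.58, as a description of libraries that share batches and groups. In whole hippocampus Klf9 stood at 233 and 249.1 CPM in KO, 217 and 223 CPM in the Het pair and 228 and 215 CPM in WT, and Klf13 at 253 and 261 CPM in KO, 251 and 234 CPM in the Het pair and 275 and 255 CPM in WT. Their log2 differences lay between -0.13 and 0.13 over the 3 genotype comparisons, and none passed.

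Klf10 lay below WT in both whole hippocampus groups that carried the deletion, without passing the test. It stood at 31.9 and 32.5 CPM in KO, 30.3 and 32.5 CPM in the Het pair and 39.3 and 36.5 CPM in WT. Each KO and Het library lay below each WT library, with log2 differences of -0.24 ± 0.072 for KO (adjusted p = 0.774) and -0.27 ± 0.072 for Het (adjusted p = 0.277). Klf10 was 1 of 5 members that did not overlap between KO and WT, against 42.1% of all genes, and 1 of 4 between Het and WT, against 46.6%. In KO against Het 4 members did not overlap, against 43% of all genes. Some marker sums separated WT from both other groups as Klf10 did. The blood list stood at 9.70 and 7.84 CPM in KO, 6.18 and 7.99 CPM in the Het pair and 37.3 and 65.1 CPM in WT, with its 4 globin genes listed at 0 throughout. WT was also highest in CA1 markers, at 935 and 909.6 CPM against 644 to 899 CPM in KO and Het. Oligodendrocyte markers were at 7739 to 8573 CPM in KO and Het and at 6728 and 6942 CPM in WT, and thalamus markers at 248.7 to 282 CPM in KO and Het and at 239 and 245 CPM in WT. The part of these markers in Klf10 was not tested. In dorsal hippocampus, KO home cage stood at 37.8, 44.6, 45.8, 28.1 and 24.0 CPM and WT home cage at 28.4, 33.5, 39.2, 36.4 and 35.2 CPM, a log2 difference of 0.061 ± 0.12. The KO home cage range contained every WT home cage value, with its 3 B2 libraries high and its 2 B3 libraries low. KO fear stood at 29.2, 35.5, 33.6 and 40.4 CPM, with a log2 difference from KO home cage of 0.27 ± 0.13 with batch as a term (adjusted p = 0.968) and -0.054 without it, and WT fear at 32.0, 31.5 and 29.4 CPM.

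Klf6, which promotes axon regeneration in zebrafish and is a tumor suppressor gene in human, was highest in Het. Whole hippocampus values were 44.5 and 42.6 CPM in KO, 53.0 and 70.6 CPM in the Het pair and 37.8 and 41.1 CPM in WT. Both Het libraries lay above the other 4, and the groups of 2 did not overlap. Of all genes, 46.6% did not overlap between Het and WT and 43% between KO and Het. Het exceeded WT by 0.65 ± 0.13 (edgeR adjusted p = 0.221, DESeq2 adjusted p = 0.00823), and the difference of KO from Het was -0.51 ± 0.13 (adjusted p = 0.261). The value of Het 2 set much of the size. Without Het 1 the 2 differences were 0.84 and -0.69 and passed (adjusted p = 0.00293 and 0.00516), and without Het 2 they were 0.42 and -0.28. Het 2 also had the highest sum of 10 neocortex markers, 569 CPM, against 458 CPM in Het 1, 404 to 415 CPM in KO and 394 to 417 CPM in WT, and was lowest in CA1 markers, 644 CPM against 854 to 935 CPM in the other 5. Both Het libraries, as for Klf6, lay above the other 4 in further marker sums. These were 399 and 453 CPM in Het against 352 to 393 CPM for endothelium, 343 and 377 CPM against 263 to 323 CPM for pericytes and smooth muscle, and 451 and 467 CPM against 409 to 435 CPM for microglia. Both lay below the other 4 for dentate gyrus, at 672 and 479 CPM against 704 to 765 CPM, and for ependyma, at 35.4 and 38.6 CPM in Het against 41.0 to 61.5 CPM. The part of these markers in Klf6 was not tested.

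In dorsal hippocampus Klf6 varied little. KO fear stood at 30.3, 29.0, 29.5 and 31.3 CPM, WT fear at 30.1, 40.1 and 31.8 CPM, KO home cage at 33.1, 30.9, 31.0, 30.8 and 33.4 CPM and WT home cage at 30.3, 36.1, 32.1, 30.5 and 31.3 CPM. WT fear 2 and WT home cage 2, both of B1, were the only libraries above 35 CPM. Log2 differences ran from -0.18 to 0.062 over the dorsal comparisons, with SE of 0.091 to 0.13, and none passed.

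Klf2 and Klf4 separated the 2 experiments, whole and dorsal, more than the genotypes. Klf2, which keeps endothelium in a quiescent state, stood at 11.9 and 11.04 CPM in KO, 10.8 and 11.1 CPM in the Het pair and 11.7 and 13.9 CPM in WT whole hippocampus. Dorsal libraries stood at 3.28, 3.37, 4.79 and 5.02 CPM in KO fear, 2.82, 3.07 and 3.03 CPM in WT fear, 2.46, 2.74, 1.82, 4.4 and 6.30 CPM in KO home cage and 1.46, 1.00, 2.49, 1.88 and 2.86 CPM in WT home cage. No whole hippocampus library overlapped a dorsal one, though the tables were normalized separately and no test was made across them. Whole hippocampus was all of B0 and dorsal hippocampus of B1 to B3, so dissection cannot be told apart from experiment or batch.

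Klf4, a pluripotency factor that in endothelium shares targets with Klf2, stood at 8.28 and 7.62 CPM in KO, 6.87 and 7.73 CPM in the Het pair and 7.46 and 7.45 CPM in WT whole hippocampus, and at 0.758 to 4.57 CPM over the dorsal libraries. The 12 endothelial markers, such as Cldn5 and Pecam1, summed to 352 to 453 CPM in whole and 94.3 to 272 CPM in dorsal hippocampus, and 10 pericyte and smooth muscle markers to 263 to 377 CPM and 78.8 to 185 CPM. None of the 12 endothelial markers was at 0 in every library of a group. Endothelial marker sums and the levels of Klf2 and Klf4 therefore differed in the same direction between the experiments, and the part of vessel content was not tested.

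Inside the dorsal experiment batch B3 stood apart. Endothelial sums were 94.3 to 147 CPM in B1, 127 to 186 CPM in B2 and 201 to 272 CPM in B3, and Klf2 stood at 1.00 to 3.37, 1.82 to 2.86 and 4.4 to 6.30 CPM in the same batches, so that B1 and B2 overlapped in both. All 4 B3 libraries lay above the other 13 in both measures, and they are KO libraries without exception. Klf4 in the B3 libraries stood at 2.80 and 4.57 CPM in KO fear and 2.10 and 3.21 CPM in KO home cage.

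**Figure D5:**
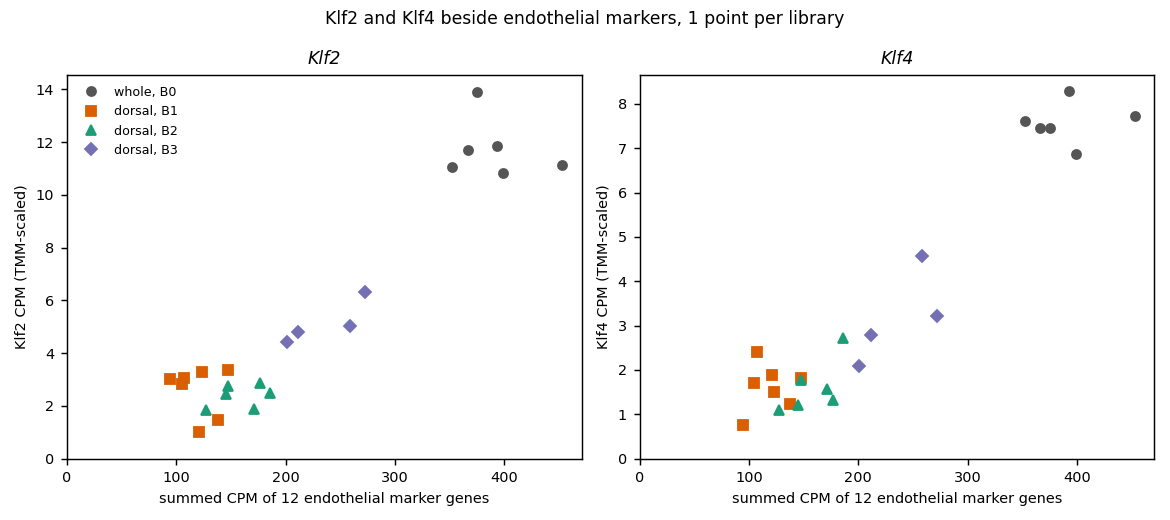
Klf2 (left) and Klf4 (right) in TMM-scaled CPM against the summed CPM of 12 endothelial marker genes, 1 point per library, with color and shape for batch. Whole hippocampus libraries (sums of 352 to 453 CPM) stand apart at the upper right, and the 4 B3 libraries (201 to 272 CPM) lie above the other dorsal libraries on the horizontal axis.

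The sign of the fitted Klf2 value changed with the treatment of batch. Klf2 was the other member without overlap in KO fear against WT fear, with each KO fear library higher, yet its log2 difference with batch as a term was -0.17 ± 0.34, within B1 0.15 and without a batch term 0.50. None of these passed. After fear in WT the Klf2 difference was 0.74 ± 0.36 (adjusted p = 0.255) and 1.27 ± 0.37 within B1 (adjusted p = 0.160), where the 3 WT fear libraries (15 to 28 reads) lay above WT home cage 1 and 2 (13 and 8 reads). Endothelial markers went the other way, 0 of 12 lying above 0 in that comparison, against 47.5% of all genes, with a median of -0.50. KO fear against KO home cage gave 0.28 ± 0.26 for Klf2, and -0.14 within B3. For Klf4 the SE was 0.31 to 0.49 in the dorsal comparisons, and log2 differences from -0.43 to 0.49 were not distinguishable from 0 at this depth.

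Klf7, a regulator of axon outgrowth, stood in whole hippocampus at 8.68 and 9.71 CPM in KO, 8.26 and 10.3 CPM in the Het pair and 9.01 and 8.63 CPM in WT, with the Het values outside and around the others. In dorsal hippocampus it stood at 8.20, 9.39, 5.16 and 5.02 CPM in KO fear, 6.97, 8.0 and 7.70 CPM in WT fear, 8.84, 7.19, 8.34, 4.96 and 5.66 CPM in KO home cage and 9.10, 5.65, 9.47, 9.0 and 7.71 CPM in WT home cage. The low values were again those of B3 (4.96 to 5.66 CPM), joined by WT home cage 2 at 5.65 CPM, the library lowest in Klf2. Its log2 differences lay between -0.052 and 0.15 in all 8 comparisons, and none passed. The gene spans chr1:64029447-64122282 on the minus strand and shares 3196 exon bases with Gm26649 on the opposite strand. The labels' protocols do not mark strand, so reads of both genes there may not be separable. None of the other 7 members shared exon bases with another annotated gene.

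Of 18 further genes of the KLF and SP family 14 passed the filter on low counts, and 0 passed the test by edgeR in any of the 8 comparisons. Their medians ran from -0.18 in KO fear against WT fear to 0.053. An unadjusted p under 0.05 was reached by 0 of the 14 in the interaction, by 1 in KO against WT (Klf5), KO fear against KO home cage (Sp7) and KO fear against WT fear (Sp2), by 2 after fear in WT (Klf11 and Sp7) and in the home cage (Klf12 and Klf15), by 4 in Het against WT and by 5 in KO against Het. Of all 15453 genes in whole hippocampus, 941, 2145 and 2038 reached it in KO against WT, Het against WT and KO against Het. Of 14808 dorsal genes 3083 did after fear in WT, 714 after fear in KO and 1674 in the home cage. The dorsal counts were 5781 in KO fear against WT fear and 3238 in the interaction. DESeq2 called Klf5 in Het against WT, among 142 genes, and Sp2 in KO fear against WT fear, among 4055.

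Of 12 KLF cofactor genes 4 fell in KO fear against WT fear, a comparison in which 12.1% of all genes fell. With the replicate number as a block that comparison called 1 gene, against 3298 in the main fit. Crebbp and Ep300, the acetyltransferases CBP and p300 that KLFs recruit, fell by 0.70 ± 0.18 and by 0.75 ± 0.20 on the log2 scale (edgeR adjusted p = 0.0188 and 0.0197), and the acetyltransferase gene Kat2a fell by 0.51 ± 0.15 (0.0268). Crebbp stood at 28.3 ± 7.19 CPM in KO fear (SD, n = 4) and 56.6 ± 9.63 CPM in WT fear (SD, n = 3). The median of the 12 was 0.043, and that of all genes 0.014.

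Of 18 genes of factors upstream of KLFs 5 fell in KO fear against WT fear, where 12.1% of all genes fell. Of the 18, 2 lay above 0, against 51.2% of all genes, and 16 lay below 0, with a median of -0.25. Thrb, the thyroid hormone receptor beta gene, fell by 0.86 ± 0.19 (adjusted p = 0.0155), Mef2d by 0.70 ± 0.16 (0.0162) and Smad3, which carries TGF-beta signals, by 0.67 ± 0.20 (0.0282). After fear in WT 2 of the 18 rose, against 0.871% of all genes, and 17 lay above 0, against 47.5% of all genes. Those that rose were Thrb by 0.78 ± 0.18 and Srf, the serum response factor gene, by 0.47 ± 0.11 (edgeR adjusted p = 0.0454 for both). Thrb was also lower in the interaction, at -1.08 ± 0.21 (adjusted p = 0.0406), where 0.284% of all genes were lower. No gene passed the interaction without a batch term or with the replicate number as a block. Among 12 tested genes of 14 reported as KLF targets, 2 passed in KO fear against WT fear, a share no higher than the 22.3% of all genes called there. The cell cycle inhibitor gene Cdkn1c rose by 1.30 ± 0.38 (adjusted p = 0.0251), and L1cam, a neuronal adhesion gene reported as a target of KLF7, fell by 1.13 ± 0.33 (0.0258).

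The KLF members were set beside genes that neuronal activity induces within minutes. After fear in WT 10 of 17 of these rose, against 0.871% of all genes. Among them were Egr2 by 4.68 ± 0.49, Fos by 2.54 ± 0.31 and Junb by 1.51 ± 0.20 (edgeR adjusted p = 4.27e-04, 0.00151 and 0.00204). The list median was 1.04, against a median of 0.10 over the KLF members. In KO home cage against WT home cage 14 of the 17 lay above 0, against 46.5% of all genes, with a median of 0.43. After fear in KO 15 of the 17 lay above 0, against 49.6% of all genes, with a median of 0.36. In both comparisons 0 of the 17 passed. In the interaction 3 of the 17 were lower, against 0.284% of all genes. They were Egr2 at -2.75 ± 0.53, Junb at -1.15 ± 0.22 and Egr1 at -1.38 ± 0.27 (edgeR adjusted p = 0.0406, 0.0420 and 0.0420), beside -0.97 ± 0.17 for Klf16. These calls too were lost without a batch term and with the replicate number as a block. Of 14 glucocorticoid-induced genes, a class that Klf9 belongs to, 2 rose after fear in WT, against 0.871% of all genes. They were Ddit4 by 0.54 ± 0.11 and the clock gene Per1 by 0.84 ± 0.20 (edgeR adjusted p = 0.0330 and 0.0494), where Klf9 stood at 0.075 ± 0.11. In KO against Het whole hippocampus Sgk1 was higher by 1.19 ± 0.095 and Tsc22d3 by 0.54 ± 0.056 (adjusted p = 0.0158 and 0.0485), beside 0.13 ± 0.060 for Klf9 (adjusted p = 0.410). Genotype and sex-linked expression cannot be told apart in that comparison.

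Genes most like each member were ranked by the Pearson r of log2 CPM over the 17 dorsal libraries after batch was removed, as a description of libraries that share groups. Klf16 was closest to Efna3 (r = 0.96), Bhlhe40 (0.96) and Nr4a2 (0.95). Klf9 was closest to Prkce (0.96), Pitpnc1 (0.95) and Rbfox1 (0.94), and Klf13 to Kcnj3, Pitpnm2 and Add2 (0.95 to 0.96). Timp2 led for Klf6 (0.90), Adck1 for Klf2 (0.88), Igflr1 for Klf7 (0.82), Cdh10 for Klf10 (0.81) and A330076H08Rik for Klf4 (0.80). Without removal of batch, r was 0.88 for Efna3 with Klf16, 0.96 for Prkce with Klf9 and -0.087 for Igflr1 with Klf7. It was 0.79 for Timp2 with Klf6, 0.75 for Adck1 with Klf2 and 0.72 for Kcnj3 with Klf13. For Cdh10 with Klf10 it fell to 0.18, and for A330076H08Rik with Klf4 to 0.11.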

How the data were processed

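RNA-seq libraries of whole and dorsal mouse hippocampus were made from polyA-selected RNA with the NEBNext Ultra II kit, per the labels' protocols, which do not mark strand. The deposited counts are whole reads per gene symbol, 1 table per experiment. Per the submitters' processing notes, STAR, SAMtools 1.1, HTSeq 0.9.1, DESeq2, limma and build mm10 were used, with roles not given. The 23 per-sample columns of the authors' normalized tables were not used. Spreadsheet date-like symbols numbered 26 in the dorsal table, none a member.

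Counts were tested per experiment with edgeR 4.0.16 (R 4.3.3) by the quasi-likelihood F test, with TMM scaling and filterByExpr (count minimum 10, total minimum 15). This left 15453 genes in whole and 14808 in dorsal hippocampus. Group was the design, with batch added in the dorsal experiment, and p-values were adjusted by Benjamini-Hochberg over all genes, at a threshold of 0.05. CPM are TMM-scaled, per kb of union exon length from GENCODE M21. Log2 CPM for likeness had a prior count of 2, and batch was removed with limma 3.58.1. Alternatives were DESeq2 1.42.0, its size factors in edgeR, no low-count filter, no batch term, fits within a batch or on the compared groups alone, a replicate block and leaving out each library. On simulated data for KO against WT whole hippocampus (15315 genes) the test recovered 88.9% of 199 changed genes, with 8 false calls. For fear in WT (14637 genes) it recovered 83.8% of 198, with 9 false calls. All genes were simulated with the same spread setting and without batch differences. Recovery at the size and spread of the members' own differences was not tested.

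The members and the other gene lists were chosen with earlier results of these data known. All 8 members are named in every comparison, and of each other list at most 3 genes that passed, smallest p first. Further KLF and SP genes at an unadjusted p under 0.05 were named after their values were seen. No pair of replicates agreed within sampling noise (chi-square per gene 5.86 to 58.9), and each was counted as 1 sample. This check cannot show whether replicates came from separate animals.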

Additional observations from a re-analysis of the deposited data

Results flagged for a closer look

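Klf13 in WT home cage replicate 2 stood at 238 CPM, apart from the 289 to 305 CPM of the other 4 libraries of its group, with a gap of 0.76 of the group's range. Screening covered 24 groups of member values, and chance marks about 1 in 20 such groups. For Klf16 the response to fear differed between KO and WT by the interaction test, at -0.97 on the log2 scale.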

How the results depend on the processing

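Of 1208 values recomputed under an alternative, 1111 kept their direction and their side of the threshold or their count, 27 lost the call, 7 gained it and 63 changed sign. DESeq2 called 142 of 15453 genes for Het against WT and 4055 of 14808 for KO fear against WT fear. The number of members called was 1 by DESeq2 for Het against WT and 2 for KO fear against WT fear. It was 0 for fear in WT on the compared groups alone, without a batch term and within B1, and 0 without a batch term for KO fear against WT fear and for the interaction. Leaving out 1 library gave 0 to 1 member for Het against WT, KO against Het, fear in WT and the interaction, and 0 to 3 for KO fear against WT fear, where Klf9 and Klf13 passed without KO home cage 3 (adjusted p = 0.0330 and 0.0401) and Klf9 without WT home cage 1 (0.0291).

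With the replicate number as a block, 0 members passed for fear in WT, KO fear against WT fear and the interaction, where Klf16 stood at 0.79, -0.74 and -0.97 (adjusted p = 0.0948, 0.119 and 0.110). Over all 14808 genes that block gave 15, 1 and 0 calls in these comparisons. Libraries of the same number deviated from their fitted values with r from -0.68 to 0.39 over 28 pairs. Pairs of unlike number were not set beside them. In whole hippocampus groups of 2 libraries the deviations mirror each other, so this check cannot decide whether the numbers pair the samples. On the compared groups alone Klf16 was 0.80 for fear in WT (adjusted p = 0.0702) and -0.77 for KO fear against WT fear (0.0129), and the interaction could not be fitted there because it uses all 4 groups. DESeq2 gave 0.84, -0.78 and -0.99 for the 3 Klf16 differences, each past the threshold.

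The values that changed sign belonged to members that did not pass in either fit. Leaving out 1 library gave -0.022 to 0.14 for Klf7 and -0.10 to 0.0018 for Klf13 in KO against WT, -0.12 to 0.051 for Klf4, -0.098 to 0.22 for Klf7 and -0.052 to 0.031 for Klf9 in Het against WT, and -0.16 to 0.16 for Klf7 and -0.011 to 0.092 for Klf10 in KO against Het. After fear in WT it gave -0.44 to 0.42 for Klf4, -0.077 to 0.17 for Klf6 and -0.30 to 0.12 for Klf7, in KO fear against KO home cage -0.024 to 0.19 for Klf7, in KO home cage against WT home cage -0.035 to 0.022 for Klf6 and -0.081 to 0.060 for Klf7, and in KO fear against WT fear -0.37 to 0.50 for Klf4.

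Without a batch term, fear in WT gave -0.10 for Klf4, -0.062 for Klf9 and -0.16 for Klf10, fear in KO -0.067 for Klf7 and -0.054 for Klf10, KO home cage against WT home cage 0.067 for Klf4, and KO fear against WT fear 0.50 for Klf2, 0.78 for Klf4 and -0.18 for Klf7. On the compared groups alone, fear in WT gave 0.033 for Klf7 and -0.0033 for Klf10, fear in KO -0.13 for Klf2 and -0.066 for Klf7, KO home cage against WT home cage -0.027 for Klf2 and 0.029 for Klf6, and KO fear against WT fear 0.17 for Klf2 and 0.030 for Klf4. Within a batch, B1 gave 0.051 for Klf7 after fear in WT, and 0.15 for Klf2 and 0.0090 for Klf4 in KO fear against WT fear. B3 gave -0.14 for Klf2 and -0.071 for Klf7 after fear in KO, and B2 -0.037 for Klf2 and 0.019 for Klf6 in KO home cage against WT home cage. With the replicate block, KO home cage against WT home cage gave 0.041 for Klf7 and -0.0048 for Klf10. The cause was not tested. Depth limits Klf2, Klf4 and Klf7 most, with 8 to 99, 6 to 90 and 37 to 196 reads in dorsal libraries.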
